A study of Drosophila melanogaster with 4 samples.

Results

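The genes described are 6 transcription factor genes of cone cell fate in the Drosophila eye, namely ct, sv (also called dPax2), pros, lz, B-H1 and B-H2. They were chosen by symbol from the 14935 genes of the deposited table, and each of the 6 has 1 row there. RNA was sequenced from 4 libraries, 1 each of larval cone cells (CCs), pupal CCs, adult CCs and adult photoreceptors (PRs), with the eye tissue of 45 to 75 animals dissected for each sort. Larval CCs came from wandering larvae late in their last instar and pupal CCs from pupae at 25 h after puparium formation, and adult CCs and adult PRs came from flies of 1 to 2 days. Larval and pupal CCs were GFP-positive cells of sev mutants that carried prosPSG-GFP and the TM2 and TM6B balancers, and these animals have no R7 photoreceptors. Adult CCs came from yw67 flies with sp over CyO and TM2 over TM6B, and they were sorted with antibodies against Fas3, an adhesion molecule, and 22C10, which marks PRs and bristle neurons. Adult PRs were RFP-positive, GFP-negative cells of prosPSG-GFP retinas. The RFP is driven by the eye promoter 3xP3, and the GFP by an enhancer of pros, so a member of this gene set had a part in choosing the cells of 3 of the libraries.

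Each unit eye of the fly holds a cluster of PRs capped by cone cells, which secrete the lens and reach down to the floor of the retina, and by primary pigment cells around them. Cone cells are recruited late, after most PRs, from cells that receive Notch and EGF receptor signals together with Lozenge, the Runx protein encoded by lz. These inputs act on an eye enhancer of sv, which encodes a Pax2-type paired domain protein. The homeodomain protein Cut, encoded by ct, is a standard marker of cone cells and depends there on sv, and pros encodes an atypical homeodomain protein made in cone cells and R7. B-H1 and B-H2 encode a pair of related Bar homeodomain proteins known from R1 and R6, from primary pigment cells and from bristle cells. They thus stand for neighbouring fates that share inputs with the cone cells.

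The values are log2 TMM-normalized read counts, and 1 normalized count is called 1 unit here. A count of 1 unit or less is listed as 0, and no correction for gene length was made. Between 8997 and 12649 genes were above 0 in a library, and the libraries summed to between 1.48 and 3.25 M units. Low values piled up at steps of 0.597 units (larval), 0.634 (pupal) and 0.854 (adult) in CCs and 1.66 in PRs. If a step is 1 read, the libraries hold an estimated 1.60 to 3.81 M reads on genes, but between 36.9% and 65.8% of values under 30 units lay within 0.02 of a whole number of steps, so counts were not recovered. The estimate is also lower than the number of mapped reads per sample that the paper's methods state. With 1 library per condition, no difference could be set against a spread between replicates, and no test was made. A gene was called higher or lower where log2(value + 4) differed by 2 or more, which is 4-fold, and the larger value was at 32 units or more. All 6 genes reached 32 units in at least 1 library of every comparison. In a bulk library, fewer cells of a type and less RNA per cell cannot be told apart.

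The 4 libraries were checked against markers of the cells they are named for. The rhodopsin genes ninaE, Rh3 and Rh6 were listed at 0 in larval and pupal CCs, and ninaE was at 1.39 (log2) in adult CCs, against 17.37 in adult PRs. The pan-neuronal gene elav, however, was at 10.75 (larval), 10.87 (pupal) and 8.74 (adult) in CCs and 10.91 in PRs. Its level in the larval and pupal CC libraries was thus close to that in PRs. Another PR marker, futsch, was at 10.31 (larval), 10.49 (pupal) and 6.58 (adult) in CCs and 12.47 in PRs. With no PR library from larvae or pupae, a rhodopsin gene at 0 there does not show that PRs were absent. Over 14 PR markers the summed level was 3430 units (larval), 3951 (pupal) and 2594 (adult) in CCs and 424376 in PRs. In larval CCs 3 of the 14 reached 32 units, namely elav (1722 units), futsch (1269) and norpA (426). In PRs all 14 did, with ninaE alone at 169335 units. The sums thus rest on unlike genes in these libraries. The lens genes Crys and retinin were at 12.88 and 17.52 in adult CCs, and neither was above 2.15 in larval or pupal CCs. In adult PRs they were at 4.82 and 11.75, so that library was not free of lens gene transcripts. The part of other cells in the PR levels of the 6 genes was not tested.

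**Figure D1:**
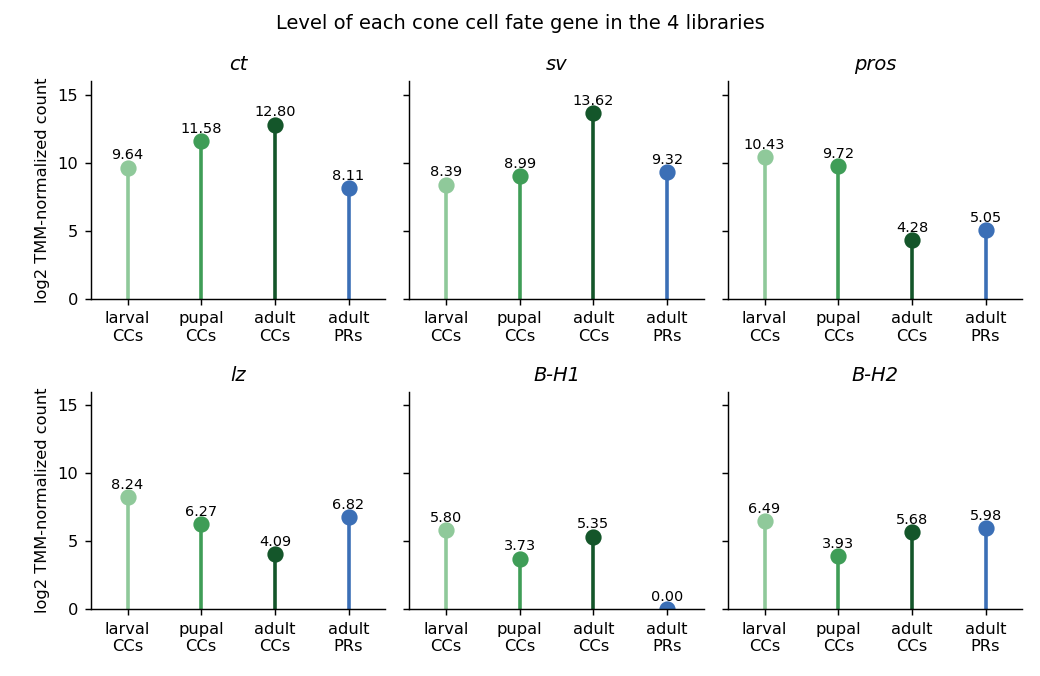
Log2 TMM-normalized count of each of the 6 genes (vertical axis) in the 4 libraries (horizontal axis), with 1 point per library and its value printed above it. The genes ct and sv peak in adult CCs at 12.80 and 13.62, while pros, lz, B-H1 and B-H2 peak in larval CCs, and B-H1 is listed at 0 in adult PRs.

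The cone cell marker gene ct (FBgn0004198, X chromosome) had its highest level in adult CCs. The log2 values were 9.64 (larval), 11.58 (pupal) and 12.80 (adult) in CCs and 8.11 in PRs. These are 797, 3065, 7133 and 276 units, so each CC stage stood above the one before it and all 3 stood above PRs. Adult CCs held 25.8-fold more units than adult PRs, which is 4.67 on the log2(value + 4) scale, and ct was called higher. The adult libraries also differ in genotype and sort, which cannot be told apart from cell type. Neither step between neighbouring stages passed the rule, with 1.94 between pupal and larval CCs (3.85-fold) and 1.22 between adult and pupal CCs (2.33-fold). Over the whole course, adult CCs exceeded larval CCs by 3.16 (8.95-fold), and ct was called higher. With libraries scaled to equal totals this difference was 2.02, close to the limit of the rule. That between adult and pupal CCs was then 0.39.

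The Pax2 gene sv (FBgn0005561, chromosome 4) followed a different course, with nearly all of its change between the pupal and adult libraries. It was measured at 8.39 (larval), 8.99 (pupal) and 13.62 (adult) in CCs and 9.32 in PRs on the log2 scale, or 334, 509, 12570 and 641 units. The adult CC library stood far above the others, which lay within 0.94 of each other. Adult CCs exceeded pupal CCs by 4.62 on the log2(value + 4) scale (24.7-fold), larval CCs by 5.22 (37.6-fold) and adult PRs by 4.28 (19.6-fold), and sv was called higher each time. Between pupal and larval CCs the difference was 0.60 and did not pass the rule. The order of adult PRs over pupal CCs rests on a gap of 0.33, and it turned round when the libraries were scaled to equal totals. Between adult CCs and the earlier stages the sort and genotype changed along with the stage, and adult CCs and PRs also differed in both. For sv and ct alike, stage or cell type cannot be told apart from sort and genotype in these comparisons.

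The level of sv in PRs was the highest of the 6 genes in that library per length of transcript. Per kb of the longest annotated transcript, adult PRs held 137 units of sv, 32.5 of lz, 23.5 of ct, 20.1 of B-H2 and 1.41 of pros. In adult CCs the same quantity was 2678 units per kb for sv and 607 for ct. Among the 305 genes above 0 in adult CCs that the table annotates, by Gene Ontology, to DNA-binding transcription factor activity and that have a length, sv placed 1 and ct placed 5. In pupal CCs ct placed 12 of 347 and sv 38, and in larval CCs sv placed 72 of 284 and ct 79. In adult PRs sv placed 27 of 225 and ct 108.

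These places depend on the transcript taken as the length, most of all for pros, whose annotated transcripts run from 5.53 to 23.5 kb. Per kb of the longest one, pros placed 91 (larval CCs) and 114 (pupal CCs), and per kb of the shortest one it placed 19 and 42. In adult CCs it placed 291 or 220 of 305, in the lower part of the list either way. For sv the shortest transcript is 2.26 kb and the longest 4.69 kb, and by the shortest it placed 45 (larval), 31 (pupal) and 1 (adult) in CCs and 17 in PRs.

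The Prospero gene pros (FBgn0004595, chromosome arm 3R) was high at the stages where sv was low in CCs and low where sv was high. Log2 values of pros were 10.43 (larval), 9.72 (pupal) and 4.28 (adult) in CCs and 5.05 in PRs, or 1375, 844, 19.4 and 33.2 units. The larval and pupal CC libraries were high and both adult libraries were low. Adult CCs stood below pupal CCs by 5.18 on the log2(value + 4) scale (43.5-fold) and below larval CCs by 5.88 (70.8-fold), and pros was called lower in both comparisons. Of the 6767 genes at 32 units or more, 1.18% had a lower difference between adult and pupal CCs than pros, and 0.233% of 6435 did between adult and larval CCs. Between adult CCs and adult PRs the difference was -0.67 and did not pass the rule. By antibody staining of adult retinas, the paper reports both Prospero and dPax2 protein in mature CCs. The values here are of RNA alone, and a low value of pros does not show that its protein was absent.

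The sort bears on these values of pros. Larval and pupal CCs were gated on GFP from a pros enhancer and adult CCs on Fas3, and the stages also differ in genotype, so that stage, genotype and sort cannot be told apart between pupal and adult CCs. In adult PRs, cells that were GFP-positive were gated out. The transcripts of Rh3 and Rh4, the opsins of R7, were at 10.78 and 11.72 in that library. The 14 PR markers did not move together between adult and pupal CCs. Of the 7 at 32 units or more, elav and futsch were called lower, with differences of -2.12 and -3.85, and Arr2 and trp higher, with 5.94 and 3.43, and the other 3 had positive differences that did not pass the rule. Their part in the result for pros was not tested. The ratio of sv to pros, in units, was 0.243 (larval), 0.602 (pupal) and 647 (adult) in CCs and 19.3 in PRs. Per kb of the longest transcript it was 1.22, 3.01, 3238 and 96.7 in the same order. Which gene was higher in larval and pupal CCs thus depends on the length taken.

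Both sv and pros share their genomic span with other genes. In the reference annotation, exons of sv overlap Cals, a calsyntenin gene on the opposite strand. The KP78a and KP78b kinase genes lie within the span of pros, also on the opposite strand and outside its annotated exons. Whether the reads were counted by strand is not given in the sources used here, so reads from such pairs may not be separated. The log2 values of Cals were 8.91 (larval), 9.84 (pupal) and 10.71 (adult) in CCs and 10.11 in PRs. It was thus highest in adult CCs as sv was, but over a range of less than 2, where that of sv was 5.23. KP78a was at 7.86, 7.06, 3.09 and 0 in the same order and KP78b at 7.83, 7.03, 3.09 and 0, so these genes were high and low in the same CC libraries as pros.

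**Figure D2:**
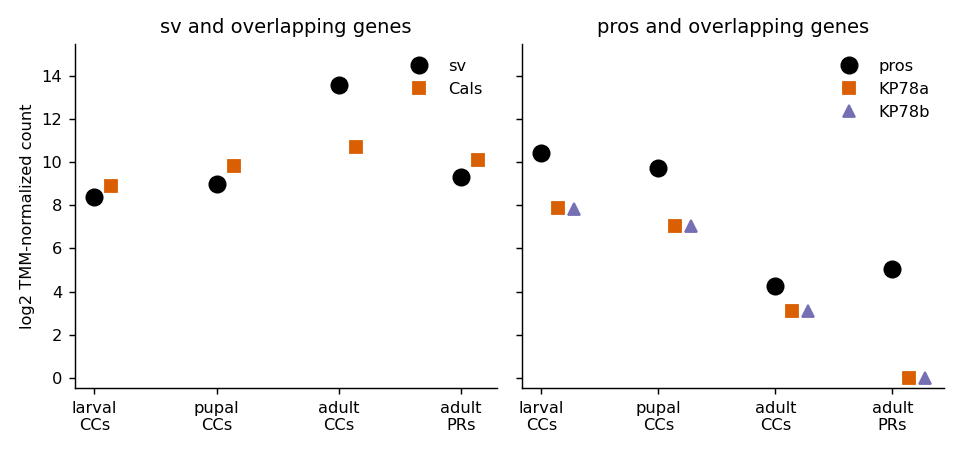
Log2 TMM-normalized count (vertical axis) of sv with the overlapping gene Cals (left) and of pros with KP78a and KP78b, which lie in its span (right), in each of the 4 libraries (horizontal axis). Points are single libraries, and points of different genes are shifted sideways to keep them apart. KP78a and KP78b are high in larval and pupal CCs as pros is, while Cals spans a narrower range than sv.

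The Runx gene lz (FBgn0002576, X chromosome) was highest in larval CCs, the stage at which cone cells are being specified. On the log2 scale it was at 8.24 (larval), 6.27 (pupal) and 4.09 (adult) in CCs and 6.82 in PRs, or 302, 76.9, 17.1 and 113 units. Adult CCs held the least of the 4 libraries, and PRs lay between larval and pupal CCs. Each step between CC stages was just under the rule, at -1.92 for pupal minus larval CCs (3.93-fold) and -1.94 for adult minus pupal CCs (4.50-fold before the 4 units are added). Over both steps lz was called lower in adult CCs than in larval CCs, by -3.86 (17.7-fold). It was also called lower in adult CCs than in adult PRs, by -2.47 (6.59-fold), though this call was lost with 16 units added, at -1.96. With libraries scaled to equal totals the single steps passed too, at -2.23 and -2.65.

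Lozenge is also made in crystal cells, a kind of fly blood cell, so hemocyte markers were read beside lz. The summed level of 7 hemocyte and crystal cell markers was 11.3 units (larval), 384 (pupal) and 233 (adult) in CCs and 21.3 in PRs. The sum was lowest in larval CCs, where lz was highest and NimC1, eater and srp were listed at 0. PPO1, a crystal cell enzyme gene, had log2 values of 0.81, 2.60 and 1.93 over the CC stages and stood at 0 in PRs. The 5 markers of dividing cells did move with lz over the CC stages, summing to 2520, 499 and 52.9 units, and to 33.2 in PRs. The part of either group of cells in the levels of lz was not tested.

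The Bar genes B-H1 (FBgn0011758) and B-H2 (FBgn0004854) are neighbouring protein-coding genes on the X chromosome and, per kb of the longest transcript, were the lowest of the 6 in larval and pupal CCs. B-H1 had log2 values of 5.80 (larval CCs), 3.73 (pupal CCs) and 5.35 (adult CCs), and it was listed at 0 in adult PRs. B-H2 was at 6.49, 3.93, 5.68 and 5.98 in the same order. Both genes were highest in larval CCs and dipped in pupal CCs, to 13.3 and 15.2 units, or about 21.0 and 24.0 steps. Pupal CCs were called lower than larval CCs for B-H2, at -2.29 (5.91-fold), and B-H1, at -1.79 (4.19-fold before the 4 units are added), did not pass the rule. The call for B-H2 was lost with 16 units added, at -1.76. With equal library totals B-H1 passed as well, at -2.13.

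**Figure D3:**
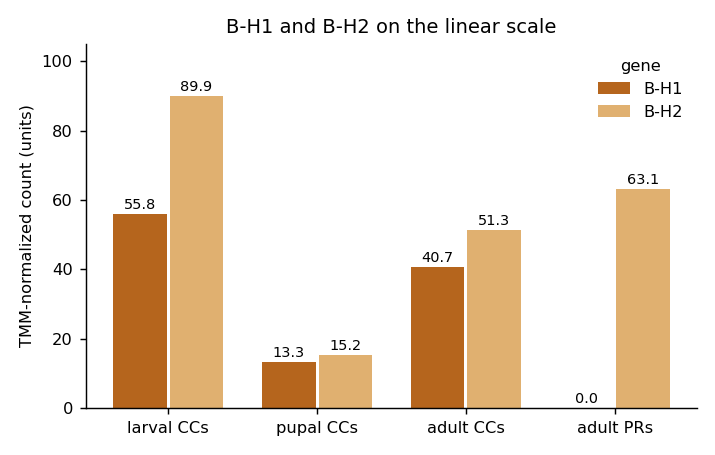
TMM-normalized counts (units, linear axis from 0) of B-H1 and B-H2 in the 4 libraries, with 1 bar per gene and library and the value printed above it. Both genes are lowest among the CC libraries in pupal CCs, while in adult PRs B-H2 is at 63.1 units and B-H1 is listed at 0.

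The Bar genes parted in adult PRs. B-H2 was at 51.3 units in adult CCs and 63.1 in adult PRs, a difference of -0.28, and B-H1 was at 40.7 units in adult CCs and listed at 0 in adult PRs. By the rule B-H1 was called higher in adult CCs, at 3.48 on the log2(value + 4) scale, a value that depends on the added 4 units and is no estimate of a fold. The call was lost with 16 units added, at 1.83, and with equal library totals, where adult CCs fall under 32 units. Of 1351 genes at 32 to 64 units in adult CCs, 124 (9.18%) were listed at 0 in adult PRs, as B-H1 was. The 2 genes are paralogs, and how reads that match both were counted is not given in the sources used here. Summed as 1 gene, an alternative chosen after the values were seen, they were at 92.0 units in adult CCs and 63.1 in adult PRs, with a difference of 0.52 and no call.

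Since the Bar genes are also made in bristle and primary pigment cells, markers of these cells were read beside them. The summed level of 7 bristle lineage markers was 82.0 units (larval), 222 (pupal) and 65.8 (adult) in CCs and 6.64 in PRs. Among the CC libraries it was highest in pupal CCs, where B-H1 and B-H2 were lowest, and over all 4 libraries both the sum and B-H1 were lowest in PRs. In adult PRs sc, ac, nompC, unc and Poxn were listed at 0. At 32 units or more were 3 of the 7 markers in pupal CCs and 0 of the 7 in each of the other libraries. The part of bristle cells in the levels of the 6 genes was not tested. The 8 pigment cell markers summed to 406 (larval), 864 (pupal) and 100080 (adult) units in CCs and 14214 units in PRs. Most of the adult CC sum came from Pdh, a retinol dehydrogenase gene, which was at 16.53 (log2) in adult CCs. The sum was highest in adult CCs, as sv and ct were, and second highest in PRs, where ct was lowest. As deposited, sv had the same order of the 4 libraries as the sum. B-H1 and B-H2 were highest in larval CCs, where the sum was lowest. The part of pigment cells in the levels of these genes was not tested.

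**Figure D4:**
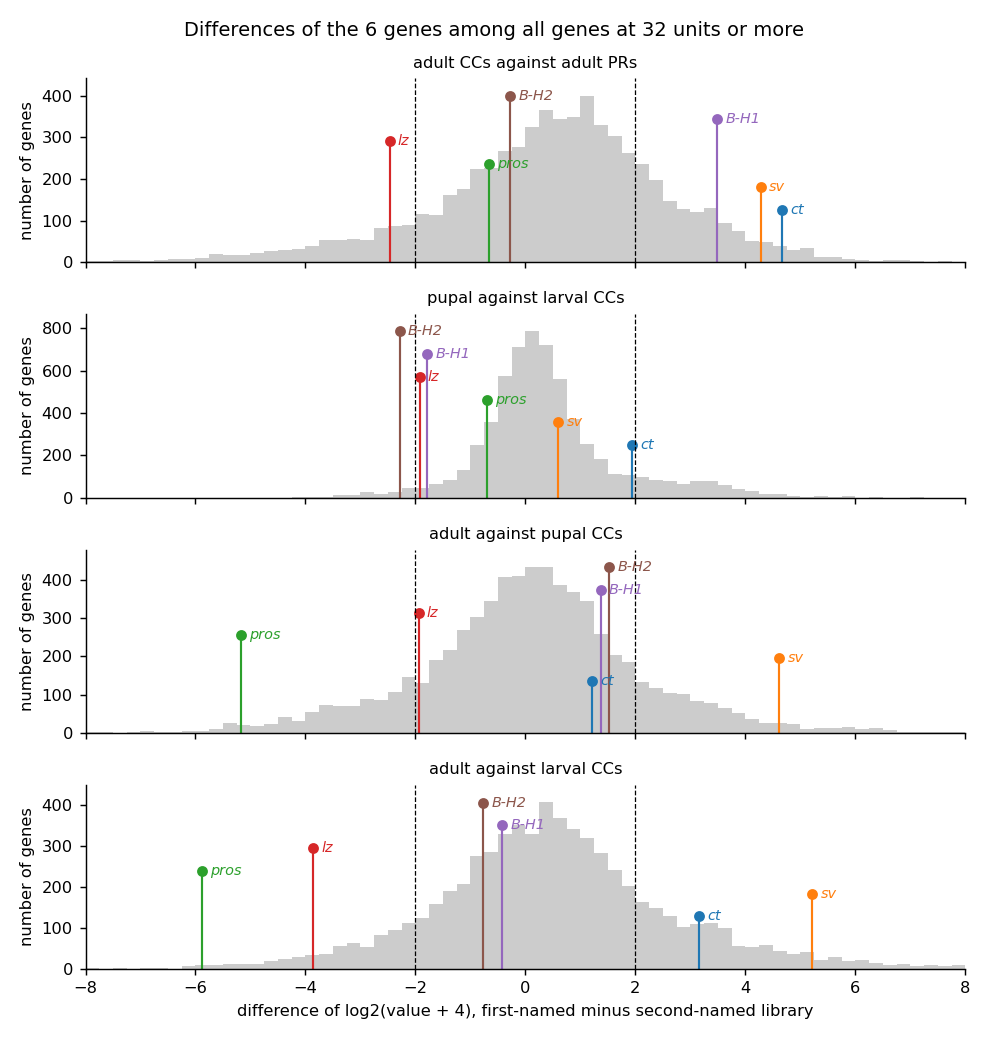
Histograms of the difference of log2(value + 4) over all genes at 32 units or more in the higher library (horizontal axis, first-named minus second-named library; vertical axis, number of genes) for 4 comparisons, with the 6 genes marked by coloured lines whose height has no meaning. Dashed lines stand at -2 and 2, the limits of the rule, and genes beyond -8 and 8 are not drawn. In adult CCs against adult PRs ct, sv and B-H1 lie right of the upper line and lz left of the lower one.

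The 6 genes had differences of both signs in every comparison. Between adult CCs and adult PRs, 3 of the 6 were called higher (ct, sv and B-H1) and 1 lower (lz), against 21.9% and 11.5% of the 6360 genes at 32 units or more. Between pupal and larval CCs 0 were called higher and 1 lower (B-H2), against 11.2% and 2.59% of 6171 genes. Between adult and pupal CCs 1 was called higher (sv) and 1 lower (pros), against 14.3% and 13.5% of 6767 genes. Between adult and larval CCs 2 were called higher (ct and sv) and 2 lower (pros and lz), against 20.9% and 10.3% of 6435 genes. The comparisons share libraries, the adult CC library being in 3 of the 4, so they do not count as separate evidence. Over the 6 genes the median was 1.60 for adult CCs minus PRs, -1.24 between pupal and larval CCs, 1.29 between adult and pupal CCs and -0.59 between adult and larval CCs. Over all genes at 32 units or more it was 0.64, 0.23, 0.11 and 0.45. A median over genes that move apart describes none of them.

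Calls in both directions were common among the genes annotated as transcription factors. Between adult CCs and PRs 26.7% of 195 such genes were called higher and 11.3% lower, and between pupal and larval CCs 6.75% of 237 higher and 9.7% lower. Between adult and pupal CCs 16.7% of 233 were called higher and 22.7% lower, and between adult and larval CCs 19.7% of 238 higher and 24.4% lower. All genes were also ranked by the adult CC value minus the PR value after taking square roots, and there sv placed 12 and ct 22 of all genes and B-H1 placed 1672. From the opposite end, lz placed 769, pros 2572 and B-H2 3088. Ranked by the difference of log2(value + 4) instead, ct placed 132, sv 202 and B-H1 442.

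The genes closest in pattern to each of the 6 were sought among the 7462 genes at 32 units or more in at least 1 library, by the Euclidean distance of log2(value + 4) centred over the 4 libraries. For sv these were Ets98B, an Ets factor gene (distance 0.17), how, which encodes an RNA-binding protein (0.27), and CG43091 (0.32). Ets98B had log2 values of 4.87, 5.60, 10.28 and 6.11 in larval CCs, pupal CCs, adult CCs and PRs, and how had 7.28, 7.88, 12.77 and 8.51. For pros they were the netrin receptor gene unc-5 (0.46), LBR, which encodes the lamin B receptor (0.59), and CG8964 (0.64), and unc-5 was at 9.62, 8.88, 3.92 and 4.54. For ct they were CG14693 (0.25), CG15629 (0.34) and Snoo, a Ski-family corepressor gene (0.57).

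For lz the closest genes were thr, which acts in the separation of sister chromatids (0.42), CG3823 (0.68) and CG32409 (0.74). For B-H1 they were CG12206 (0.22), CycD, the gene of Cyclin D (0.28), and ft, which encodes the atypical cadherin Fat (0.30). For B-H2 they were CG15365 (0.45), snoRNA:Psi28S-291 (0.49) and CG1529 (0.53). The choice of measure mattered with 4 points per gene. Ranked by Pearson correlation instead, 3 of these 18 genes (unc-5, thr and CG1529) were again among the closest 3. Within the set itself the closest pair was lz and B-H2 at 2.69, where B-H2 placed 1244 among all genes by its distance from lz, and the farthest was sv and pros at 8.75. The Bar genes were 3.22 apart, most of it from adult PRs.

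The genes of the signals that act on sv and lz in cone cell specification were measured in the same libraries. Of 12 genes of the Notch pathway, 9 were at 32 units or more in adult CCs or adult PRs, with a median difference of 1.66 beside 0.64 over all genes. Among these 9, adult CCs were called higher for 3 and lower for 0, against 21.9% and 11.5% of all genes. The 3 were Dl, neur and N. The ligand gene Dl was at 7.70 for adult CCs and 3.90 for PRs, and the ubiquitin ligase gene neur at 9.01 and 6.11. The receptor gene N was at 9.07 and 7.04, and its difference of 2.00 stood at the limit of the rule. Over the CC stages the receptor and its ligands did not pass the rule between neighbouring stages. The E(spl) target genes did: between adult and pupal CCs both of those listed were called lower. They were 2 of 11 Notch pathway genes at 32 units or more, with 0 called higher, against 13.5% and 14.3% of all genes. E(spl)m8-HLH had log2 values of 9.29 (larval CCs) and 5.68 (pupal CCs), E(spl)mdelta-HLH had 8.05 and 6.86, and adult CCs and PRs listed both genes at 0. Su(H), the DNA-binding effector of Notch, was at 6.71 (larval), 7.36 (pupal) and 5.28 (adult) in CCs and 3.75 in PRs.

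**Figure D5:**
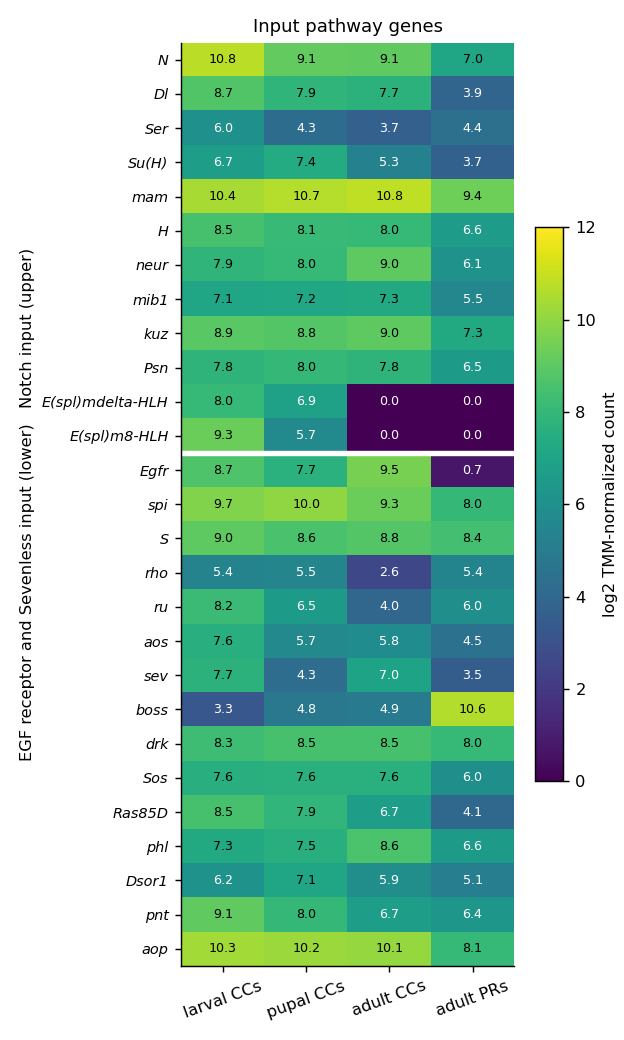
Log2 TMM-normalized counts (colour and printed value) of 12 Notch pathway genes (above the white line) and 15 EGF receptor and Sevenless pathway genes (below it) in the 4 libraries (columns). The E(spl) genes are listed at 0 in both adult libraries, Egfr is low in PRs alone, and boss is high in PRs alone.

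Of 16 genes of the EGF receptor and Sevenless pathways, 15 have a row. Adult CCs against PRs gave 4 higher and 2 lower calls among these 15, near the 21.9% and 11.5% of all genes, with a median of 1.18 beside 0.64 over all genes. The receptor gene Egfr was at 9.54 in adult CCs and 0.73 in PRs, a difference of 7.05, and its level in the earlier stages was 8.70 in larval and 7.65 in pupal CCs. Ras85D, which encodes Ras, was at 6.66 in adult CCs and 4.05 in PRs, and aop, which encodes the Ets repressor Yan, at 10.11 and 8.05, with a difference of 2.04. The activator gene pnt, the Ets partner of the sv enhancer, was at 9.07 (larval), 7.98 (pupal) and 6.67 (adult) in CCs and 6.35 in PRs, and was called lower in adult than in larval CCs, with -2.35. The genes rho and ru, whose proteases release the EGF receptor ligand Spitz, were at 2.58 and 3.97 in adult CCs, against 5.46 and 6.52 in pupal CCs, and both were called lower. Of 14 genes of these pathways at 32 units or more, 2 were called lower and 1 higher, against 13.5% and 14.3% of all genes. The receptor gene sev was at 7.72, 4.28 and 6.95 in larval, pupal and adult CCs and 3.54 in PRs. Larval and pupal animals were sev mutants and the flies of the adult CC library were not, so stage and allele cannot be told apart in the last step. Its ligand gene boss, made by R8, was at 4.90 in adult CCs and 10.62 in PRs.

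Among 7 genes that act in the choice between R7 and cone cell, 5 were at 32 units or more in adult or pupal CCs. Of these, phyl and chn were called lower in adult CCs and 0 higher, against 13.5% and 14.3% of all genes. The adaptor gene phyl, which lets the ligase Sina reach the repressor Tramtrack, was at 2.21 in adult CCs and 8.26 in pupal CCs, and chn, a zinc finger gene, at 5.30 and 10.34. The repressor gene ttk itself was at 9.63, 9.60, 11.18 and 9.65 in larval CCs, pupal CCs, adult CCs and PRs and passed the rule in none of the 4 comparisons. Of the 8 eye selector genes, 7 were at 32 units or more in adult CCs or PRs. Against PRs, adult CCs had higher calls for eya and hth and a lower call for gl, beside 21.9% and 11.5% of all genes. The phosphatase and cofactor gene eya was at 12.66 in adult CCs, against 8.47 in pupal CCs, and so, which encodes its DNA-binding partner, at 9.61, against 7.34. Both were called higher in adult than in pupal CCs, as sv was, and dac was called lower, at 2.28 against 5.99. The 8 genes thus gave 2 higher calls and 1 lower, against 14.3% and 13.5% of all genes.

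Relatives of the 6 were read from the same libraries. Of 9 other Pax genes, 4 reached 32 units in an adult library, and eyg was called higher in adult CCs, at 7.63, than in PRs, at 4.87. That is 1 of the 4 called higher and 0 lower, against 21.9% and 11.5% of all genes. Against pupal CCs, eyg and toe, a neighbouring pair of eyegone-type genes, were called higher in adult CCs, with differences of 3.09 and 2.83. They were 2 of 4 Pax genes at 32 units or more, with 0 called lower, against 14.3% and 13.5% of all genes. The Pax6 genes ey and toy passed the rule in none of the comparisons, at 7.52 and 9.35 in adult CCs, and Poxm, Poxn, prd, gsb and gsb-n were at 3.30 or less in every library. Of the other Runx genes, run, RunxA and RunxB were at 4.29 or less in every library. The Runx partner gene Bgb was at 7.04 (larval), 7.39 (pupal) and 4.90 (adult) in CCs and 4.76 in PRs, with adult CCs called lower than pupal CCs. Its paralog Bro was at 0.26 in larval CCs and listed at 0 elsewhere. Groucho, a corepressor that binds Runx proteins and Notch targets, is encoded by gro, which was at 8.99, 9.02, 8.31 and 7.35.

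The gene onecut, which encodes another Cut-domain protein, ran opposite to ct between the adult libraries, at 5.62 in adult CCs and 11.53 in PRs. It was at 8.96 in larval CCs and 9.97 in pupal CCs. Of 7 other homeobox genes related to the Bar genes, Dll alone reached 32 units, at 5.58 (larval), 6.72 (pupal) and 2.09 (adult) in CCs and 0 in PRs.

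Prospero protein is carried by other proteins in dividing precursors and regulates cell cycle and precursor genes there. Of 9 genes listed for these roles, pupal CCs were called lower than larval CCs for 4 and higher for 0, against 2.59% and 11.2% of all genes. The median over the 9 was -1.45 beside 0.23 over all genes, while pros itself did not pass the rule. CycE, 1 of the 4, and stg are also among the 5 dividing cell markers, whose sum was 2520 units in larval and 499 in pupal CCs. The part of dividing cells was not tested. The adaptor gene mira, which anchors Prospero in neuroblasts, was at 3.67 in pupal CCs and 7.15 in larval CCs, and dpn, a bHLH repressor gene of neuroblasts, at 4.50 and 8.72. Between adult and pupal CCs 6 of the 9 were at 32 units or more. Of these, brat, ase and stg were called lower and 0 higher, against 13.5% and 14.3% of all genes. The Cdc25 phosphatase gene stg was at 3.44 in adult CCs and 8.18 in pupal CCs. The RNA-binding gene stau was at 9.34, 9.75, 10.34 and 10.46 and passed the rule in none of the comparisons.

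Of 12 factor genes of other retinal cells, 6 were at 32 units or more in adult CCs or PRs. Adult CCs were called lower than PRs for 5 of these and higher for 0, against 11.5% and 21.9% of all genes. The median over the 6 was -3.92 beside 0.64 over all genes. The Otd gene oc was at 0.46 in adult CCs and 9.78 in PRs, and Pph13, a homeobox gene of PRs, at 2.36 and 8.75. The zinc finger gene peb was at 4.06 in adult CCs and 8.80 in PRs, and at earlier stages it was at 9.06 (larval CCs) and 6.86 (pupal CCs), so that it had the same order of libraries as lz except that larval CCs and PRs lay closer together. Among 7 genes of the lens and of cone cell adhesion, 6 were at 32 units or more in adult CCs or PRs. Adult CCs were called higher for 3 (Crys, retinin and Fas3) and lower for 0, against 21.9% and 11.5% of all genes. The genes ct and sv were also called higher, and the Fas3 protein was the gate of the adult CC library.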

How the data were processed

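Per the file headers and the paper's methods, the authors mapped reads to dm3, counted them per gene and deposited log2 TMM-normalized counts, set on a common scale with whole-fly data; the aligners in the submitters' processing notes are TopHat2 2.0 and Bowtie 1.0. The counter, its treatment of strand and its treatment of reads that match several genes are not given in the sources used here. The NuGEN Ovation kit amplified the RNA before Nextera libraries were made, which can alter levels along and between transcripts.

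Values were put back on the linear scale, with a listed 0 kept at 0. Of 14959 entries, 24 repeats of a gene, all at 0, were left out. The members and lists were chosen with earlier results of these data known. Besides the members, any gene of a list could be named, with up to 4 per list and comparison taken by the largest difference among those called, and the 3 genes closest in pattern to each member. Genes in the spans of sv and pros, the closing gene ontology terms and the leading transcription factors were picked with their values known. Of 134 list symbols, 133 have a row, 8 of them matched by FlyBase or Entrez ID. Transcript lengths came from Ensembl release 115 on BDGP 6, another build than dm3, so no coordinates are given; 94.9% of genes matched. No sequence was read. No test across replicates was possible. The rule was tested on simulated data. Python 3.11.15, numpy 2.4.6, pandas 2.3.3 and matplotlib 3.10.9 were used.

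Alternatives were 1 or 16 units added, equal library totals, equal medians of the log2 ratio to the mean library over genes at 8 units or more everywhere, no minimum, a minimum 8 times as high, an 8-fold rule, another ranking and another likeness. The shortest transcript and the summed Bar genes were added after seeing the data.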

Additional observations from a re-analysis of the deposited data

How the results depend on the processing

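The higher minimum below is 8 times the usual 32 units. Of 176 values of single members under an alternative, 157 kept their direction and side of the rule, 10 lost the call, 8 gained one, 1 changed sign without a call and 0 called values changed sign. Part of this was fixed in advance. All members reached 32 units in every comparison, so the 24 values with no minimum could not change. The higher minimum and the 8-fold rule use the same differences, so no sign could change and no call could be gained there. Under both scalings all 6 members kept the order of their 4 libraries, except sv with equal totals. Adding 1 or 16 units to every library cannot change that order. The summed Bar genes had another order than either gene, with adult CCs above PRs by 0.52. In the first 1000 genes ranked by adult CCs minus PRs were 2 members on square roots and 3 on log2(value + 4). Median differences over all genes for adult CCs against PRs, pupal against larval, adult against pupal and adult against larval CCs were 0.35, -0.07, -0.69 and -0.65 with equal totals and 0.14, 0.01, -0.03 and 0.09 with equal medians.

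Between adult CCs and PRs the count of members lower was 0 with 16 units added, with the higher minimum and with the 8-fold rule. Genes higher were 920, 602 and 681 in those settings, against 1390, and genes lower were 333 with the minimum and 423 with the 8-fold rule, against 734. Of called genes, 65.4% were higher as deposited, 54.4% with equal totals and 48.5% with equal medians.

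Between pupal and larval CCs the count of members lower was 3 with equal totals and with equal medians, and 0 with 16 units added, the higher minimum and the 8-fold rule. Genes higher were 399 with 16 units added, 1262 with no minimum, 169 with the higher minimum and 366 with the 8-fold rule, against 693. Genes lower were 93, 48 and 43 with 16 units, the minimum and the 8-fold rule, against 160. List genes called were 6 and 5 in the last 2 settings.

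Between adult and pupal CCs the count of members lower was 2 with 1 unit added, equal totals and equal medians. Genes higher were 572 with equal totals, 589 with the higher minimum and 509 with the 8-fold rule, against 966. Genes lower were 596 with 16 units added, 1565 with equal totals, 294 with the minimum and 481 with the 8-fold rule, against 913. List genes called were 11 and 14 in the last 2 settings. With equal totals 26.8% of called genes were higher, against 51.4%.

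Between adult and larval CCs genes higher were 720 with equal totals, 700 with the higher minimum and 802 with the 8-fold rule, against 1346. Genes lower were 415 with 16 units added, 1582 with equal totals, 206 with the minimum and 324 with the 8-fold rule, against 665. List genes called were 18 and 19 in the last 2 settings. With equal totals 31.3% of called genes were higher and with equal medians 55.4%, against 66.9%.

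Of the 18 genes closest to the members, 3 were shared with the ranking by correlation. Per kb of the shortest transcript, 1 member (pros in larval CCs, sv in PRs) was in the first 20 transcription factor genes of each of these libraries, and 0 per kb of the longest. Stricter rules lower counts by construction, and for the scalings the cause was not tested. No paired analysis was possible because each condition has 1 library. Depth limits the low values, of which B-H1 was listed at 0 in PRs, while pros in both adult libraries, lz in adult CCs and both Bar genes in pupal CCs were under 25 steps.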

Other observations

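The table's own annotation lists 11 other genes under the gene ontology terms for the differentiation of compound eye cone cells and their fate commitment, a list taken up after the values were seen. Against adult PRs, adult CCs had more Dl, Egfr and N by the 4-fold rule and less of 0 genes. These are 3 of the 10 at 32 units or more, beside 21.9% of all genes called higher and 11.5% lower. All 3 were already counted above among the Notch and EGF receptor genes. Between pupal and larval CCs 0 passed it in either direction. Between adult and pupal CCs ru alone passed it, at 3.97 (log2) in adult CCs, against 6.52 in pupal CCs. The repressor gene emc, whose protein holds back bHLH factors, was at 9.36, 9.89, 10.11 and 8.74 in larval CCs, pupal CCs, adult CCs and PRs, and sno, a Notch pathway gene, at 7.83, 8.31, 9.05 and 7.03.

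Per kb of the longest transcript, the first places among genes annotated as transcription factors changed hands between libraries. In larval CCs E(spl)m7, listed under its older symbol HLHm7, placed first with 1371 units per kb. In pupal CCs crc, the fly ATF4 gene, was first with 545, and in PRs it was first with 1977, ahead of Pdp1 with 1934. In adult CCs crc came after sv with 1145 units per kb, and gem, a gene of the Grainyhead family, after it with 1023.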
